A study of Mus musculus with 2 samples.

Results

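The 54 genes described here encode enzymes that add methyl groups to histones or remove them, subunits of the complexes that hold those enzymes, and the enzymes that methylate and oxidise cytosine in DNA. They were chosen by gene symbol from a fixed list of histone lysine methyltransferases other than Dot1l, lysine demethylases, polycomb subunits, DNA methyltransferases and TET enzymes. All 54 symbols were found among the 24319 rows of each deposited table. The list was described as holding autosomal demethylases, but the demethylase gene Phf8 lies on the X chromosome, as does the methyltransferase gene Suv39h1.

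RNA was sequenced from lymphatic endothelial cells (LECs) of the skin of C57BL/6 mouse embryos at stage E15.5 (embryonic day). One library was labelled wild type (control) and the other Dot1l knockout; the protocol text gives the knockout as endothelial. The Cre line, the deleted part, any allele that the control embryos carried and the way the cells were purified could not be read from the sources used here. Per the labels' protocols, the RNA behind each library was pooled from 2 to 3 biological replicates. With 1 library per genotype there is no replicate check, and no test, standard deviation or p-value is given for any difference. The values are FPKM, by definition fragment counts divided by transcript length and by a library total, so levels can be set side by side between genes. The depth and any further scaling between the libraries are not stated.

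Methyl groups on histone lysines act through proteins that read them. Methylation of lysine 4 of histone H3 (H3K4) marks active promoters and enhancers, that of H3K36 marks transcribed gene bodies, and that of H3K9, H3K27 and H4K20 is tied to silent or compacted chromatin. Polycomb repressive complex 2 (PRC2) methylates H3K27 and polycomb repressive complex 1 (PRC1) ubiquitinates histone H2A, and together they hold developmental genes silent, HOX genes among them. DOT1L is the methyltransferase of H3K79, and it differs from the other lysine methyltransferases in having no SET domain.

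The FPKM of Dot1l was 5.86 in control against 10.4 in the other library, 1.77-fold higher. It was thus not lower in the knockout-labelled library. The value covers the whole gene, reads outside a deleted part would still count, and it does not check the label.

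The 2 libraries also differed in the markers of several cell types. The summed FPKM of 10 macrophage markers was 46.9 in control against 3025 in the knockout-labelled library, and that of 8 mast cell markers was 104 and 12933, with every marker of both lists at least 2-fold higher and Fcer1a listed at 0 in control. All 8 endothelial markers were at least 2-fold lower (sums of 1065 and 204), as were 6 of 7 lymphatic endothelial markers (sums of 843 and 614), the exception being Lyve1 at 526 and 552. Prox1, which defines lymphatic identity, was 59.3 and 13.1, so neither library lacked it. Fibroblast markers summed to 2671 and 688, pericyte and smooth muscle markers to 147 and 25.8, and keratinocyte markers to 166 and 84.4. In bulk RNA, fewer cells of a type and less RNA per cell cannot be told apart. The part of other cell types in the values below was not tested.

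As a group the methylation enzymes lay closer to equal in the 2 libraries than the tested genes as a whole. Their FPKM summed to 1016 in control against 1148 in the knockout-labelled library. On the scale log2(FPKM + 1), knockout-labelled library minus control, 50 of 54 genes (92.6%) lay within 2-fold, beside 67.7% of the 13296 genes that reached 1 FPKM in 1 or both libraries. Of the 54 genes 4 were at least 2-fold higher (7.41%), beside 16.8% of all genes tested, and none was at least 2-fold lower, beside 15.49%. At 1.5-fold 13 were higher, beside 26.1%, and 4 lower, beside 25.9%. The quartiles of the 54 differences were -0.17 and 0.51, against -0.62 and 0.63 over all genes. Their median was 0.16, with 37 higher and 17 lower values, beside a median of 0.00 and 50.2% higher values over all genes. All 54 genes passed the minimum of 1 FPKM, and 53 passed it in both libraries; Setd1b passed through the knockout-labelled library alone. Among the 10442 genes whose mean FPKM lay within the range of these genes (1.87 to 63.9), the shares were 15.9% higher and 15.2% lower.

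**Figure D1:**
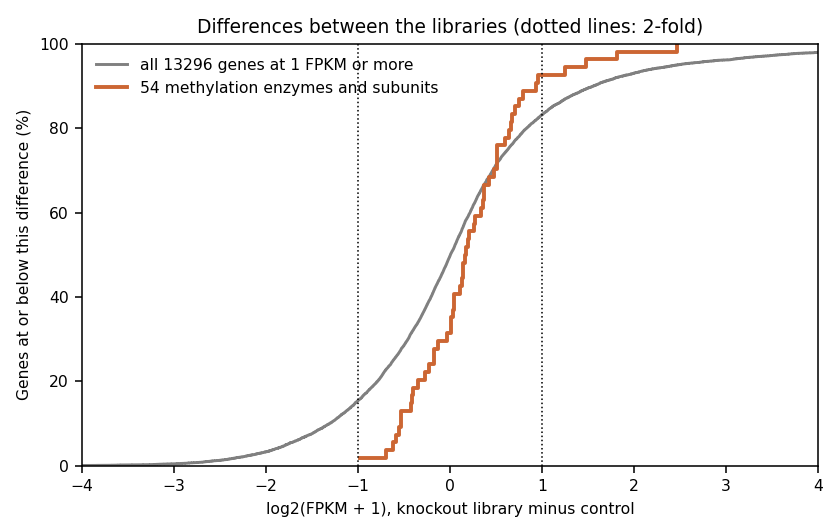
Cumulative share of genes (percent, vertical axis) at or below each log2 difference (horizontal axis, knockout-labelled library minus control) for the 54 methylation enzymes and subunits and for all 13296 genes tested. The curve of the 54 genes is steeper: 50 of them lie between the dotted lines at 2-fold, and the 4 beyond are all on the right.

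The sign of small differences depended on how the libraries were scaled. When both libraries were brought to an equal sum of 1000000 FPKM (equal-sum scaling), the median of all genes moved to -0.35 and that of the 54 genes to -0.17. The split of the 54 genes then became 22 higher and 32 lower, beside 35.4% higher values over all genes. On each side 3 of the 54 genes were past 2-fold, beside 14.2% of all genes higher and 25.2% lower. The median of the 54 genes stayed 0.11 to 0.18 above that of all genes under every pseudocount, scaling and minimum tried. Of the 54 genes, 22 were higher and 17 lower in every setting that tested them, and 15 changed sign in at least 1. No such count over all genes is given beside these, so they are not read as a trait of the group. A minimum of 5 FPKM left 50 genes. The median of all genes was -0.13 with the same upper quartile and -0.16 with equal sums without small RNAs. With the median log2 ratio of genes set to 0 it was 0.01. The scalings thus moved values almost only downward, and a pseudocount cannot change a sign. Genes lower as deposited therefore had almost no room to change sign.

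**Figure D2:**
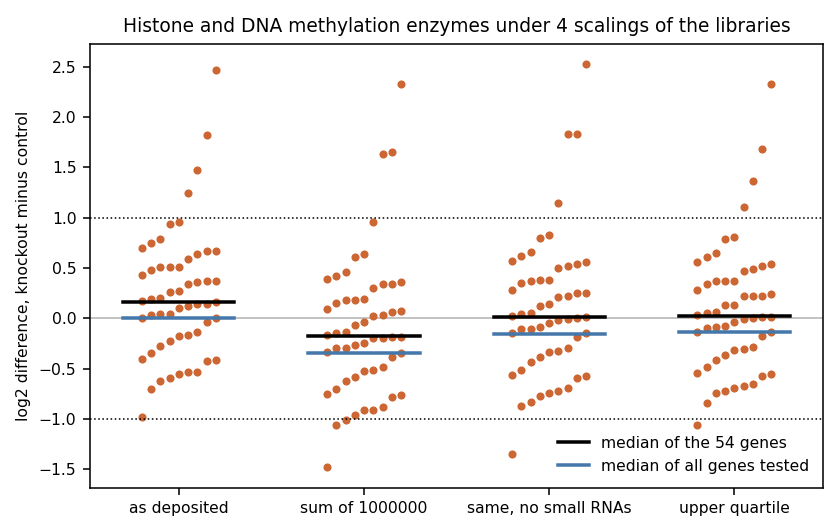
The log2 difference (vertical axis, knockout-labelled library minus control) of the 54 genes, 1 point each, under 4 scalings of the libraries (horizontal axis); points are spread sideways only to separate them. Black bars are the median of the 54 genes and blue bars the median of all genes tested, and the black bar lies above the blue one in each column.

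The gene with the greatest difference was Kdm6b, which encodes the JmjC demethylase that removes methyl groups from H3K27 and so opposes PRC2. It was at 2.67 FPKM in control against 19.2 in the knockout-labelled library, a 7.22-fold ratio, with a log2 difference of 2.47. In control it stood 53rd of the 54 genes by level, and in the other library 30th. Kdm6b is known as a gene that inflammatory stimuli induce in macrophages, and Csf1r, the defining macrophage receptor, was 1.10 FPKM in control and 152 in the same library. The part of macrophages in the Kdm6b value was not tested. Kdm6b also shares 286 exon bases with an opposite-strand transcript, Kdm6bos, in GENCODE M21, as 18 of the 54 genes do with some gene of the opposite strand.

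Kmt2d followed. It encodes the large methyltransferase that places monomethylated H3K4 at enhancers, and its values were 3.23 FPKM in control against 13.9 in the other library, 4.31-fold higher (log2 difference 1.82). Setd1b, the catalytic subunit of a complex that trimethylates H3K4 at promoters, had 0.520 and 3.22 FPKM. That is a 6.19-fold ratio but a log2 difference of 1.47, because the 1 FPKM added to every value shrinks the difference of lowly expressed genes. Setd1b was the lowest of the 54 genes in control. The fourth gene was Tet3, a dioxygenase that oxidises methylated cytosine, at 8.44 and 21.4 FPKM, 2.53-fold higher (log2 difference 1.24). Kdm6b and Kmt2d passed 2-fold in every setting with that threshold, whereas Setd1b and Tet3 fell short with a pseudocount of 5 (0.57 and 0.97), and Tet3 also under equal-sum scaling (0.95).

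Just inside the 2-fold limits lay Setdb1 (14.5 and 29.0 FPKM, log2 difference 0.95) and Whsc1l1 (18.7 and 36.7, 0.93), also called Nsd3. Setdb1 encodes an H3K9 methyltransferase that silences retroviral elements. By the ratio of FPKM Setdb1 was 2.00-fold higher and Whsc1l1 1.96-fold. Setdb1 fell inside the limit through the 1 FPKM added to every value. On the other side the lowest difference was that of Tet1, at 3.16 FPKM in control against 1.10 in the knockout-labelled library. It was 2.86-fold lower by the ratio of FPKM, with a log2 difference of -0.98, and it passed 2-fold with a pseudocount of 0.1 (-1.44) and under equal-sum scaling (-1.48).

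**Figure D3:**
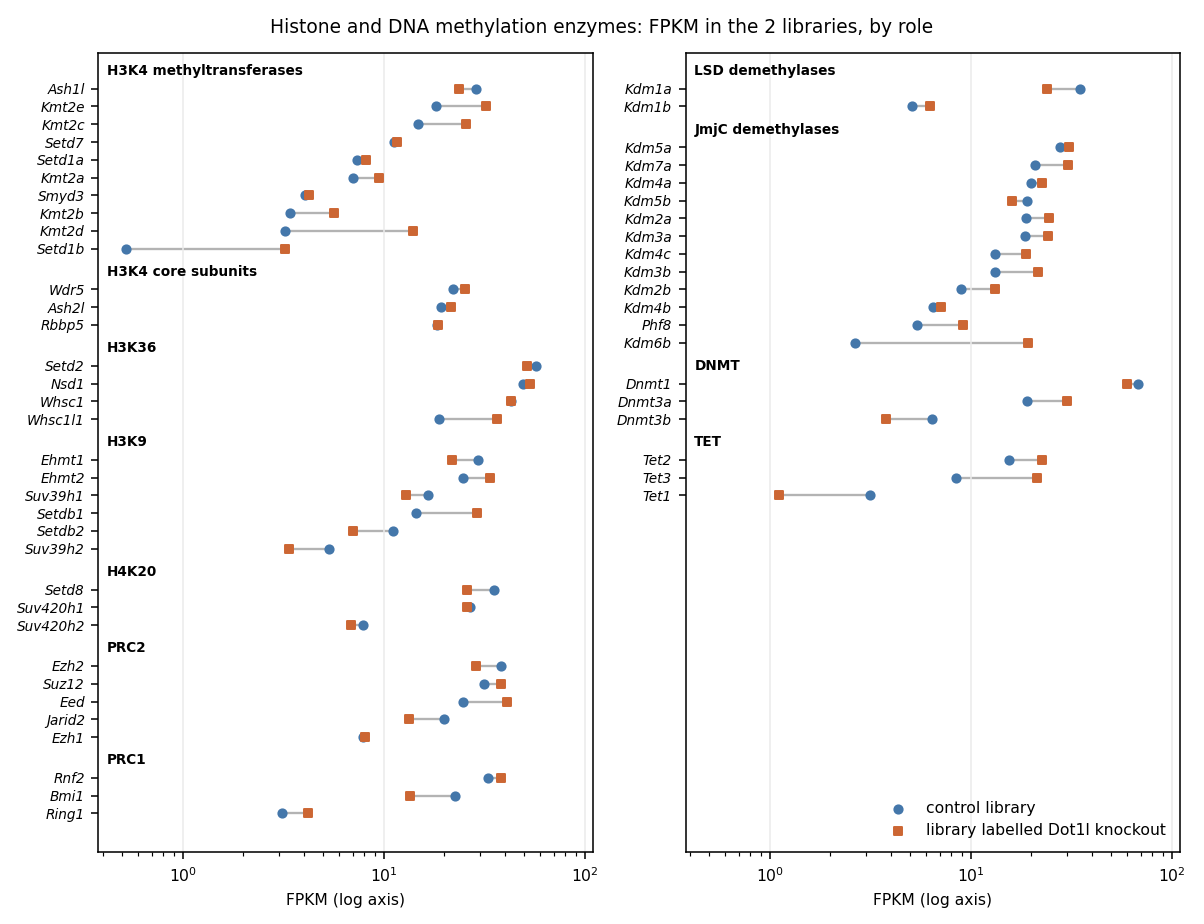
FPKM (horizontal log axis) of each of the 54 genes in the control library (blue circles) and in the library labelled Dot1l knockout (orange squares), grouped by role and ordered within a role by the control value. The longest lines are those of Kdm6b, Setd1b and Kmt2d, which start at 2.67, 0.520 and 3.23 FPKM in control.

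The start regions of genes at both ends of this range are shown because cytosine methylation acts on CpG dinucleotides, and these windows show how much CpG lies at the starts of genes whose values differed. RefSeq windows on GRCm38.p6 (250 bases before to 50 after a gene's start) were matched by symbol for 40 of the 54 genes, in 56 windows. Kdm6b, Setd1b and Whsc1l1 were not matched. Each window is written 5′ to 3′ on the gene's strand, with CpG dinucleotides in capitals: Kmt2d (chr15:98871156-98871455, minus strand), Tet3 (chr6:83441629-83441928, minus), Setdb1 (chr3:95357153-95357452, minus) and Tet1 (chr10:62887275-62887574, minus).
Kmt2d: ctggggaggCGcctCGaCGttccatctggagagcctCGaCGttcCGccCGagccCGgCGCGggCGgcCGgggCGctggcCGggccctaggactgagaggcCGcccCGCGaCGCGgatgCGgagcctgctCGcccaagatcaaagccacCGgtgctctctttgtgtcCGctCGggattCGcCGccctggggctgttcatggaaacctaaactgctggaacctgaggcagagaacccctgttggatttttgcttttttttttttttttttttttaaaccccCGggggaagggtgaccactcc
Tet3: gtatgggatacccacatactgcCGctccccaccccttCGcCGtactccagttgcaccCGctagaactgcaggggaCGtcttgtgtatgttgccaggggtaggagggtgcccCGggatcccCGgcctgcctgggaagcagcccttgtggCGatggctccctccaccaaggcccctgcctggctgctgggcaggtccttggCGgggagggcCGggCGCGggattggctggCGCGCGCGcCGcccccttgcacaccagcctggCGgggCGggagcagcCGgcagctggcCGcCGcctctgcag
Setdb1: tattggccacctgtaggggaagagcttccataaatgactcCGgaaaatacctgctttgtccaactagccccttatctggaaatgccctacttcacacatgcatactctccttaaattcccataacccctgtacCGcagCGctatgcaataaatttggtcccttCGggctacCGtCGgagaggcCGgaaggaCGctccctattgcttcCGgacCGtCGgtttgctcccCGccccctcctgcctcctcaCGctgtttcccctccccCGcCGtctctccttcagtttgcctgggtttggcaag
Tet1: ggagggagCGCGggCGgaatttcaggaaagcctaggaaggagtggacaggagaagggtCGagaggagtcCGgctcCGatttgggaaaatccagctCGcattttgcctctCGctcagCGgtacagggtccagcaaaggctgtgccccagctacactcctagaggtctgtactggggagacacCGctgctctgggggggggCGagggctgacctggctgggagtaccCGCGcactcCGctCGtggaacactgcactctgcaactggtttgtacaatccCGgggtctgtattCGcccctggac
The Kmt2d window holds 27 CpG, that of Tet3 22, that of Tet1 17 and that of Setdb1 15. The ratio of observed to chance CpG, given each window's C and G content, was 0.917 for Kmt2d, 0.702 for Setdb1, 0.607 for Tet1 and 0.576 for Tet3. Tet1 and Tet3 had similar ratios but 17 and 22 CpG, and a link of CpG content to the differences was not tested.

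CpG-rich starts were common in the group. A ratio of 0.6 or more was found in 49 of 56 windows (87.5%), beside 66.9% of the 13368 windows of genes with at least 1 FPKM and 35.8% of all 32851 windows. The median window held 27.5 CpG, against 20 and 7. Some genes have several windows, and 2 windows hold no CpG, each at 1 of several starts of Kdm3a and of Kdm4c. The GC box GGGCGG, on either strand, was in all 4 windows printed above and in 41 of 56 (73.2%), against 61.3% of windows of genes with at least 1 FPKM and 35.7% of all. CCGGAAG, a core that ETS factors bind, was in 3 (Kdm3a, Kdm7a and Setdb1, 5.36%), against 16.5% and 8.86%. These are letter matches in a short window, and the search did not cover the genes without one.

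The methyltransferases of H3K4 held 2 of the 4 genes at least 2-fold higher, which is 20% of the 10 genes placed in this role and near the 16.8% of all genes tested. Of the 10 genes 9 had higher values in the knockout-labelled library, beside 50.2% of all genes, or 6 under equal-sum scaling, beside 35.4%. Their median difference was 0.48, or 0.20 after that rescaling. With equal sums without small RNAs 7 of the 10 were higher, beside 43.1% of all genes. Kmt2c, the close relative of Kmt2d that also acts at enhancers, was 14.9 FPKM in control against 25.6 in the other library. Kmt2e, a relative with little or no methyltransferase activity of its own, was 18.3 and 32.3. Kmt2b was 3.43 and 5.67, and Kmt2a, which maintains HOX gene expression, was 7.05 and 9.42. These 4 genes were higher by 1.73-fold, 1.77-fold, 1.66-fold and 1.34-fold. Setd1a stood at 7.34 and 8.19, Setd7 at 11.3 and 11.7 and Smyd3 at 4.06 and 4.22, all close to equal, and each was lower under equal-sum scaling. Setd1a shares 3523 exon bases with Gm49388 on the same strand in GENCODE M21. Gm49388 has no value of its own here, and its part in the Setd1a values was not tested. Ash1l, which is better known for methylating H3K36, was the single lower gene, at 28.9 and 23.7.

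The core subunits that all KMT2 and SETD1 complexes share differed little. Wdr5, which bridges the catalytic subunit and the core, was 22.2 FPKM in control against 25.5 in the knockout-labelled library. Ash2l was 19.3 and 21.7, and Rbbp5 18.5 in both. All 3 were lower under equal-sum scaling, but Rbbp5 alone when small RNAs were left out of the sums. The summed FPKM of the 6 catalytic subunits (Kmt2a to Kmt2d, Setd1a and Setd1b) was 36.4 and 66.0, a 1.81-fold ratio that became 1.42-fold under equal-sum scaling. The shares within that sum do not depend on scaling between libraries: Kmt2d took 8.87% in control against 21.1% in the other library, and Setd1a 20.1% and 12.4%. Kmt2c had the greatest share in both, at 40.8% and 38.8%.

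**Figure D4:**
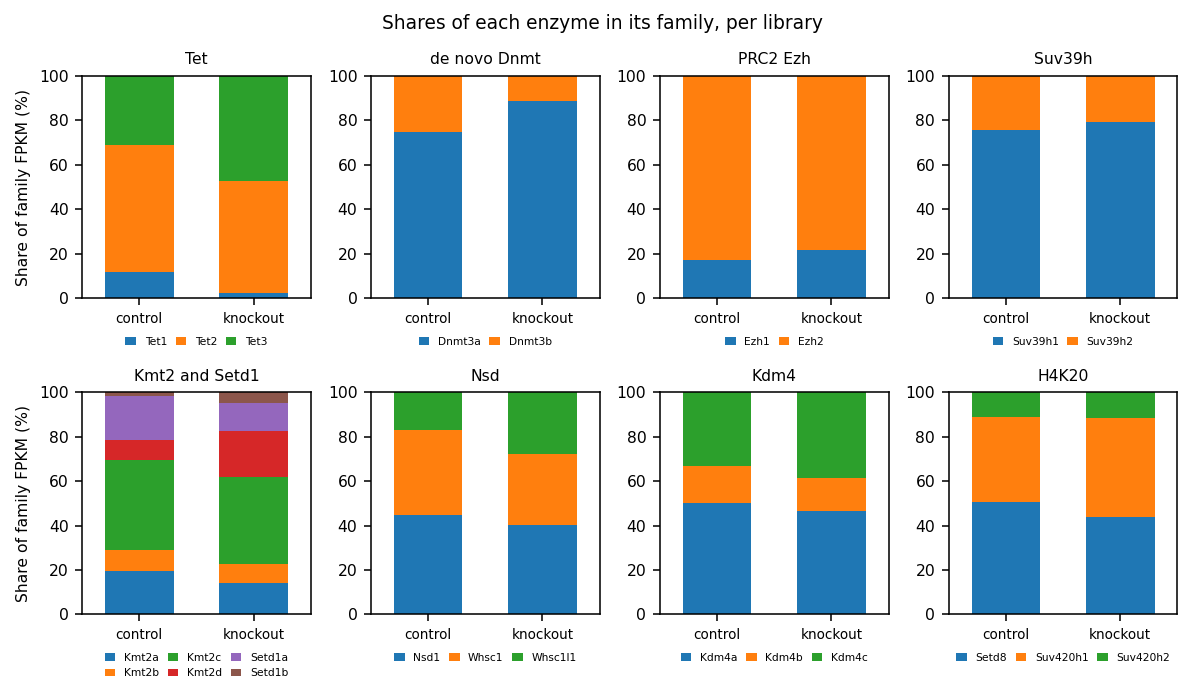
Share of each gene (percent of the family's summed FPKM, vertical axis) in 8 enzyme families, for the control library and the knockout-labelled library. Tet3 takes more of the Tet family (31.1% and 47.5%) and Tet1 less (11.7% and 2.45%), Kmt2d takes more of the Kmt2 and Setd1 family, and the shares in the Suv39h, Kdm4 and Ezh families differ by less than 6 percentage points.

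Methyltransferases of H3K36 were among the most abundant genes of the group. Setd2, the enzyme of H3K36 trimethylation, was 57.0 FPKM in control against 51.7 in the knockout-labelled library. Nsd1 was 49.6 and 53.4 and Whsc1, also called Nsd2, was 42.8 and 42.9. Of these 3 genes Setd2 differed most, by 1.10-fold, and Nsd1 and Whsc1 changed sign under other scalings. Whsc1l1 alone differed by more, and its share of the NSD family was 16.9% in control against 27.6% in the other library.

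The genes of H3K9 methylation went both ways, with the same signs in every setting tried. For the 4 lower genes the scalings tried could hardly change the sign. Setdb1 and Ehmt2 were higher: Ehmt2, which encodes G9a, was 24.8 FPKM in control against 33.7 in the knockout-labelled library. Its partner Ehmt1, which encodes GLP, was lower, at 29.5 and 22.0. The ratio of Ehmt2 to Ehmt1, which form a heteromer, was therefore 0.842 in control against 1.54 in the other library. The enzymes of constitutive heterochromatin were both lower: Suv39h1 was 16.7 and 12.9, and Suv39h2 5.33 and 3.36. Setdb2 was 11.1 and 7.01. Suv39h2 shares 357 exon bases with Dclre1c on the opposite strand in GENCODE M21, and Dclre1c was 3.65 and 40.0 FPKM; whether reads were counted by strand could not be read from the sources used here.

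The 3 genes of H4K20 methylation were all lower, a sign that the scalings tried could hardly change. Setd8, which places the first methyl group and is needed for S phase and mitosis, was 35.3 FPKM in control against 26.0 in the knockout-labelled library. Suv420h1 was 26.7 and 26.1, and Suv420h2 7.90 and 6.90. None passed 2-fold under any scaling. The 14 proliferation markers summed to 1039 and 995 FPKM, with 9 lower and 5 higher values. These sums hold differences of opposite sign: Pcna was 97.7 and 215, the single marker past 2-fold, and Mki67 was 250.4 and 141.

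PRC2 subunits were split. Ezh2, the catalytic subunit of dividing cells, was 38.5 FPKM in control against 28.9 in the knockout-labelled library, and Jarid2, which helps recruit the complex, was 20.02 and 13.3. Eed, the subunit that binds trimethylated H3K27, was 24.9 and 41.1, and Suz12 31.6 and 38.4. Ezh1, the catalytic subunit found in resting cells, was 7.85 and 8.07. The sign of Eed held in every setting, whereas Suz12 and Ezh1 turned lower under equal-sum scaling. Ezh2 and Jarid2, lower as deposited, kept their sign but had almost no room to change it. The ratio of Eed to Ezh2 was 0.647 in control against 1.42 in the other library, and that of Ezh2 to Ezh1 was 4.91 and 3.58. The ratio of Kdm6b, which removes the mark, to Ezh2, which places it, was 0.0692 and 0.665.

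Among PRC1 genes, Rnf2, the main ubiquitin ligase subunit, was 33.1 FPKM in control against 38.3 in the knockout-labelled library, and its paralog Ring1 was 3.12 and 4.21. Bmi1, also called Pcgf4, was lower in every setting, at 22.6 and 13.5. Rnf2 turned lower under equal-sum scaling, where Bmi1 passed 2-fold (-1.06).

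Of the 12 JmjC demethylases 11 had higher values in the knockout-labelled library, beside 50.2% of all genes, or 8 under equal-sum scaling, beside 35.4%. Their median difference was 0.42, or 0.09 after that rescaling, and Kdm6b alone passed 2-fold (8.33%, beside 16.8%). With equal sums without small RNAs 9 of the 12 were higher, beside 43.1% of all genes. The H3K36 demethylases Kdm2a and Kdm2b were 18.8 and 24.5 FPKM and 8.96 and 13.2 FPKM, control first. Among H3K9 demethylases Kdm3a was 18.6 and 24.3 and Kdm3b 13.2 and 21.5. In the Kdm4 family, which acts on H3K9 and H3K36, Kdm4c was 13.2 and 18.9 while Kdm4a (19.98 and 22.6) and Kdm4b (6.48 and 7.14) differed by 1.13-fold and 1.10-fold. Kdm7a was 21.0 and 30.3 and its X-linked relative Phf8 5.39 and 9.14. All these genes except Kdm4a and Kdm4b kept their sign in every setting.

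The demethylases of H3K4 went both ways. Kdm5a was 27.7 FPKM in control against 30.7 in the knockout-labelled library and changed sign with scaling. Kdm5b was 19.0 and 16.04, the single lower JmjC gene. Kdm1a, which encodes the flavin-dependent demethylase LSD1, was 35.1 and 24.0, lower in every setting, and its relative Kdm1b was 5.08 and 6.29 and changed sign with scaling. Kdm1b shares 498 exon bases with Dek on the opposite strand, and Dek was 225 and 109 FPKM.

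The DNA methyltransferases kept their order. Dnmt1, which copies methylation at replication, had the highest level of the 54 genes in both libraries, at 67.8 FPKM in control against 60.1 in the knockout-labelled library. The de novo enzymes differed in opposite directions, in every setting: Dnmt3a was 19.0 and 30.1, and Dnmt3b 6.37 and 3.78. Dnmt3a was thus 2.98 times Dnmt3b in control and 7.95 times in the other library.

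The 3 TET enzymes also differed in opposite directions, in every setting that tested all 3. A minimum of 5 FPKM left out Tet1. Tet2, the family member best known from blood cells, was 15.495 FPKM in control against 22.5 in the knockout-labelled library, while Tet3 was at least 2-fold higher and Tet1 lower, as given above. Tet3 was 2.67 times Tet1 in control and 19.4 times in the other library. Tet2 held the greatest share of the family in both, at 57.2% and 50.1%. The counts behind these values, estimated from the size of the steps between low FPKM values, were about 458 and 142 fragments for Tet1 if no further scaling was applied. For Setd1b, the gene with fewest in control, they were about 46.1 and 253.

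The 4 genes at least 2-fold higher had long transcripts with a high GC content. In the longest coding transcript of GENCODE M21, GC was 59.6% in Kdm6b, 59.0% in Setd1b, 58.4% in Kmt2d and 53.4% in Tet3, against a median of 48.4% over the 54 genes and 49.97% over all genes tested. Their lengths were 6654, 8857, 19823 and 10904 nt, against medians of 5975 and 3094. Tet1, the lowest gene, had a long transcript too (14369 nt), with 43.7% GC. Across the 54 genes Spearman's rho of the difference with GC was 0.27 and with length 0.35, as a description of genes that share 2 libraries. Over the 13197 tested genes with a transcript the same values were 0.04 and -0.10. With all tested genes cut into 5 equal bins of GC, the share at least 2-fold higher went from 13.8% in the lowest bin to 19.0% in the highest, and 3 of the 9 methylation genes in that highest bin were. The part of base composition in these differences was not tested.

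**Figure D5:**
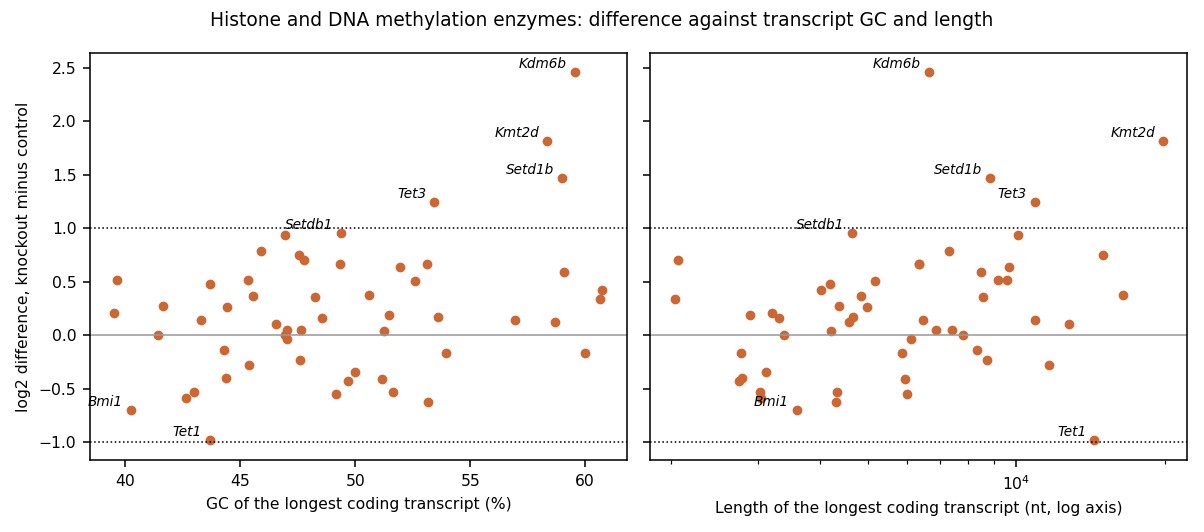
The log2 difference (vertical axis, knockout-labelled library minus control) of the 54 genes against GC content (percent, left) and length (nt, log axis, right) of the longest coding transcript. Kdm6b, Kmt2d and Setd1b lie at 58.4% to 59.6% GC and above the dotted 2-fold line, while several other genes of similar GC, such as Ehmt2 and Setd1a, lie within 2-fold.

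Another 105 genes of the same pathways, from lists of arginine methyltransferases, further SET and PRDM genes, polycomb subunits, partners and methyl donor enzymes, were divided. Of the 100 that passed 1 FPKM, 6 (6%) were higher and 10 (10%) lower by 2-fold or more, beside 16.8% and 15.49% of all genes tested, and their median was 0.02. All but 1 of the 10 partners of H3K9 methylation had lower values, while 50.2% of all genes had higher ones, and 2 passed 2-fold (20%, near the 15.49% of all genes): Cbx1, which encodes the H3K9 reader HP1 beta, at 86.7 FPKM in control against 37.5 in the knockout-labelled library, and Mphosph8, a reader of the silencing complex HUSH, at 48.9 and 16.3. Among 8 partners of the KMT2 and SETD1 complexes 6 had lower values and 2 higher ones (25%, beside 50.2% of all genes). Their median difference was -0.50. Of the 8 partners 2 were at least 2-fold lower (25%, beside 15.49% of all genes). Psip1, a chromatin tether, was 193 and 52.8 and Men1, which encodes menin, 20.6 and 8.77. No gene of those 2 lists was at least 2-fold higher, beside 16.8% of all genes.

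Of the further polycomb subunits 25 of 27 (92.6%) lay within 2-fold, beside 67.7% of all genes tested, with a median of 0.07. The other 2 were lower (7.41%, beside 15.49% of all genes). They were Cbx2, a PRC1 subunit that binds methylated H3K27, and Pcgf3, of a variant PRC1. Cbx2, named after its values were seen, was 4.95 and 1.28 FPKM. Pcgf3 was 29.2 FPKM in control against 11.7 in the knockout-labelled library. In the SET and PRDM list the genes at least 2-fold lower included Mecom, a transcription factor of endothelium and blood stem cells, at 16.4 and 2.28, and Smyd2 at 84.8 and 37.6. Of 9 arginine methyltransferases Carm1 alone passed 2-fold (11.1%, beside 15.49% of all genes lower), at 15.6 and 5.74. The 9 other JmjC genes that passed 1 FPKM all lay within 2-fold, beside 67.7% of all genes. With a pseudocount of 5, Carm1 (-0.94) and Men1 (-0.89) fell short of 2-fold.

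Of 11 further DNA methylation genes that passed 1 FPKM 3 were at least 2-fold higher (27.3%, beside 16.8% of all genes) and none lower. Gadd45a, a stress gene tied to DNA demethylation, was 8.63 FPKM in control against 42.2 in the knockout-labelled library, Gadd45b was 15.46 and 60.2, and Zbtb33, an X-linked reader of methylated CpG also called Kaiso, was 6.17 and 13.4. Among 10 methyl donor genes the median difference was 0.69 and 30% were at least 2-fold higher, beside the same 16.8%. Those past 2-fold included Mtr, the methionine synthase, at 8.28 and 27.5, and Ahcy, which clears S-adenosylhomocysteine, at 3.88 and 10.7. With a pseudocount of 5, Ahcy was no longer past 2-fold (0.82). Zbtb33 was past 2-fold neither with that pseudocount (0.72) nor under equal-sum scaling (0.72) nor with the same upper quartile (0.86). Xist, made from the inactive X chromosome of female cells, was 48.6 FPKM in control but is listed at 0 for the other library. By this marker female cells were seen in control alone, so embryo sex and label cannot be told apart in any comparison here. The part of sex in the values, those of the X-linked genes Phf8, Suv39h1 and Zbtb33 among them, was not tested.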

How the data were processed

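Each of the 2 libraries came as 1 FPKM value per gene symbol, as deposited by the authors. The submitters' processing notes name STAR 2.5.2b, Cufflinks 2.2.1, Cuffnorm, R 3.3.2 and mm9; for their roles, the annotation and any scaling between libraries nothing was given in the sources used here. RNA had an integrity number above 7.0, per the labels' protocols. The FPKM summed to 415537 (control) and 530294, with 14.7% of the latter and 2.21% of the former in small RNAs, Rpph1 and Rmrp.

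Differences are log2(FPKM + 1), knockout-labelled library minus control, over genes that reached 1 FPKM in 1 or both libraries (Python 3.11.15, pandas 2.3.3). Depth was estimated by scanning 500 step sizes in low values of genes with 1 transcript of at least 2500 nt (fragment length of 200 nt assumed): 81.2% of 170 and 77.1% of 166 values lay within 0.1 of a whole number, which implies about 10200000 and 9060000 fragments. Since whole reads came back for low genes only, a count model was not used.

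Older symbols were matched through RefSeq synonyms, and 24177 of 24319 rows had a match. No coordinates from another build were joined to the values. A spreadsheet had turned 27 symbols into dates. All 54 members may be named; further pathway genes are named when 2-fold apart and at 5 FPKM or more, and 2 that met this are not reported here. Setdb1 and the motifs were chosen for display after values were seen. Members and lists were chosen with earlier results of these data known.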

Additional observations from a re-analysis of the deposited data

How the results depend on the processing

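No paired analysis was possible because there was 1 library for each genotype, and for the same reason no replicate could be left out. Counted as 2-fold higher were 4 genes, beside 16.8% of all genes. A pseudocount of 5 left 2, beside 9.95% of all genes, and a 3-fold limit left 2, beside 9.76%. A 1.5-fold limit gave 13 (24.1% of the 54, beside 26.1% of all genes). There were 3 under equal-sum scaling, beside 14.2%, and 3 with a minimum of 5 FPKM, which leaves out Setd1b, beside 17.5%. The count at least 2-fold lower was 0 as reported, beside 15.49% of all genes. It became 1 (Tet1) with a pseudocount of 0.1, beside 20.1% of all genes. It was also 1 (Tet1) with the same upper quartile, beside 17.6%, and with equal sums without small RNAs, beside 21.3%. Under equal-sum scaling it was 3 (Bmi1, Dnmt3b and Tet1), beside 25.2%. At 1.5-fold it was 4 (7.41%, beside 25.9%). The median difference of 0.16 became 0.17 with a pseudocount of 0.1, 0.14 with a pseudocount of 5, -0.17 under equal-sum scaling, 0.024 with the same upper quartile, 0.17 with the median log2 ratio of genes set to 0 and 0.017 with equal sums without small RNAs. It did not move with no minimum or with a minimum of 5 FPKM, where 50 genes were left. The median of all genes was -0.35, -0.13 and -0.16 under the sum, upper quartile and small RNA scalings. Of the 4 genes at least 2-fold higher, none changed sign under any setting. They were picked for the size of their differences, and no setting tried moved values far enough to change a sign. The cause of the changes with scaling was not tested.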
